A study of Durio zibethinus with 9 samples.

Results

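The comparison set pulp of mature durian fruit (mature stage, MS, 120 days) against pulp of young fruit (young stage, YS, 90 days) in the cultivar Durio zibethinus var. D24. Its members are 6 of the 9 RNA-seq libraries of the series, MS_01 to MS_03 and YS_01 to YS_03, chosen by the stage and age in their labels. The remaining 3 libraries (ripening stage, RS, 127 days) came from mature fruits left to ripen at room temperature, and they enter here only as levels beside the comparison. The labels give no treatment and no genetic change for any fruit, all are of the same cultivar, and by the methods each stage was sampled in triplicate. The series compared the stages to follow gene expression from growth to ripening of the pulp.

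The edible pulp of durian is an aril, a fleshy coat that grows around the seed. A young aril enlarges, which takes the making of new cell wall together with enzymes that loosen it, while a mature one has filled with starch and sugars and can ripen. Durian is a climacteric fruit, in which ripening goes with a burst of ethylene, a gas hormone that plants make from methionine through S-adenosylmethionine and 1-aminocyclopropane-1-carboxylate (ACC). Methionine is also the source of the sulfur compounds that give the pulp its odour.

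Levels are given as FPKM, fragments mapped to a gene scaled by its length and by the depth of the library, always for library 01, 02 and 03 in that order, and 0 marks a gene that the table of that library does not list. A value after ± is the standard error of the log2 fold change. The mapped bases per library were 2685 to 3018 Mb at MS and 2619 to 3553 Mb at YS, a difference that did not pass an exact two-sided permutation test (p = 0.5). The smallest p that 3 libraries against 3 can give in that test is 0.1. At MS 19123 to 19154 genes reached an FPKM of 1, against 20291 to 21667 at YS, without overlap (p = 0.1, the same exact permutation test). The 3 MS libraries were nearly alike. Only 26 to 30 of 21598 genes differed more than 2-fold between any 2 of them, against 3811 to 5419 genes between any 2 YS libraries. Fragments were estimated from the coverage, and counting noise was checked only in genes spanning 600 to 2000 bases. In these the MS libraries were spread 1.01 to 1.21 times as widely as counting noise alone at 30 to 100 fragments per gene. At 1000 to 10000 fragments they were spread 1.5 to 1.68 times as widely. For the YS libraries these values were 4.43 to 5.60 and 17.4 to 25.9 times. The tables hold no counts, so it cannot be told whether the MS libraries, biological replicates by the series text, are separate fruits or repeats of one RNA sample. Each call was therefore repeated with the 3 MS libraries averaged to 1 sample, in a fit of all stages whose error came from YS and RS, and this is called the averaged fit. The RS libraries behind that error were uneven. RS_01 and RS_02 were spread 1.35 to 2.71 times as widely as counting noise, nearly as close as the MS libraries, while RS_03 differed from them 2.4 to 12.1 times as widely, with 15171 genes at an FPKM of 1 against 19614 and 19471.

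**Figure D1:**
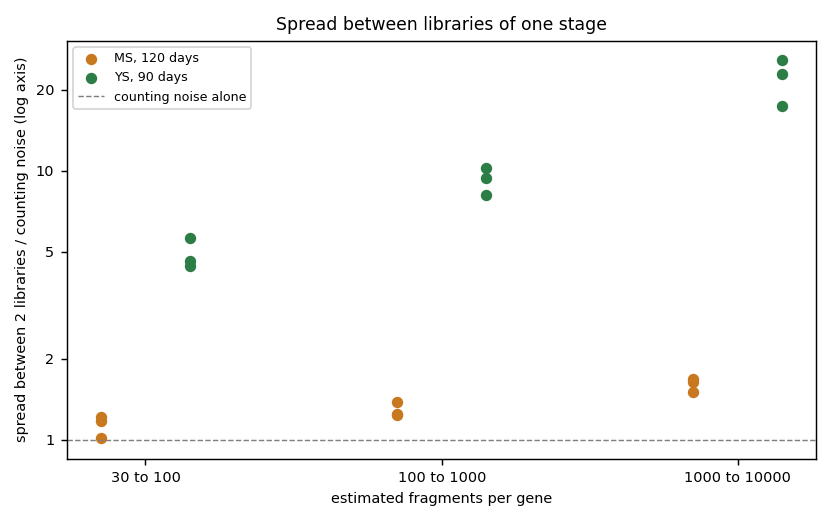
Spread of the log2 ratio between 2 libraries of one stage, divided by the spread that counting noise alone would give (log axis), against the estimated number of fragments per gene. Each point is 1 pair of libraries, over genes spanning 600 to 2000 bases. All MS pairs lie between 1.01 and 1.68, and all YS pairs between 4.43 and 25.9.

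At MS 1172 of 21598 tested genes rose, 5.43% of them, and 2211 fell, 10.2%, together 15.7%. Both words stand for an adjusted p under 0.05 in limma together with a log2 fold change, MS over YS on FPKM with 1 added, of more than 1.5 in size. The added 1 makes the fold change of a weakly expressed gene smaller than the ratio of its FPKM. The risen genes together held 25.3% to 25.4% of all FPKM at MS, against 3.31% to 6.38% at YS. The fallen genes held 3.75% to 3.79% at MS, against 27.6% to 31.7% at YS. Most fallen genes were at a low level at MS. The median fallen gene had a mean FPKM of 1.24 at MS and 15.1 at YS, while the median risen gene had 27.6 at MS and 5.63 at YS. In the averaged fit 301 of the risen genes (1.39% of those tested) and 627 of the fallen genes (2.9%) still passed, and no other gene did. With the error taken from the YS libraries alone, a setting chosen after seeing the data, 8 and 18 of them passed. The MS and YS libraries did not overlap in 58.5% of all tested genes, in all 1172 risen genes and in 2210 of the fallen genes.

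Among the YS libraries, library 01 was the nearest to MS in 58.0% of the risen and in 51.8% of the fallen genes. On the first principal component of the 500 most variable genes the MS libraries scored 49.2 to 49.4, while YS_01 scored -31.4, YS_02 -53.5 and YS_03 -63.0, so that YS_01 again lay nearest to MS.

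Product names were taken from the study's own tables and text, which name 598 genes apart from uncharacterized ones. Of these 593 were in the data and 471 were tested, of which 101 rose (21.4%) and 185 fell (39.3%). In the averaged fit 61 of the 471 rose and 80 fell. The study picked many of them for their change in these same samples, so the counts of every gene group below describe the group and are not independent evidence of its direction. They are best read against the shares of all named genes.

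The largest rises of named genes were spread over transcription factors, transporters and binding proteins. Mavicyanin-like (LOC111292651), a small copper-binding protein, had 146, 139 and 140.0 FPKM at MS, against 0.722, 0.422 and 0.365 at YS (log2 fold change 6.58 ± 0.17, adjusted p = 1.73e-05). Acyl-CoA-binding protein-like (LOC111303063), of a family that carries activated fatty acids, had 70.5, 66.2 and 59.6 FPKM at MS and 0.138, 0 and 0.0565 at YS (log2 fold change 5.96 ± 0.17, adjusted p = 1.81e-05). The young pulp was thus close to silent for both genes in every library, and at RS they were at 476, 515 and 297 FPKM and at 186, 213 and 178 FPKM. Protein DETOXIFICATION 40-like (LOC111281105), of a family of membrane exporters, had 104, 101 and 103 FPKM at MS and 1.41, 1.69 and 0.819 at YS (log2 fold change 5.51 ± 0.2, adjusted p = 4.06e-05). A pair of transmembrane protein 45A-like genes rose together. LOC111285498 had 693, 731 and 709.7 FPKM at MS and 25.04, 3.48 and 2.74 at YS (log2 fold change 6.55 ± 0.7, adjusted p = 0.00107), and LOC111301815 had 350.0, 359 and 342 at MS and 14.8, 1.15 and 7.21 at YS (log2 fold change 5.75 ± 0.67, adjusted p = 0.0014). The pair with the largest rise, early nodulin-93-like (LOC111304216 and LOC111304214), were at 3466 to 3765 FPKM at MS and at 1.29 to 91.7 FPKM at YS, and their RS levels were back at 1.21 to 1.89 FPKM. These 2 genes are alike in every library and may share reads, so their separate levels are uncertain.

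The 15 largest falls took in enzymes, regulators and growth genes. Protein CDI-like (LOC111295419) had 0.204, 0.215 and 0.0689 FPKM at MS and 155, 175 and 147 at YS (log2 fold change -7.10 ± 0.17, adjusted p = 1.73e-05). E3 ubiquitin-protein ligase ATL4-like (LOC111299223), which tags proteins for breakdown, had 0, 0.103 and 0.0902 FPKM at MS and 90.2, 88.9 and 100.2 at YS (log2 fold change -6.47 ± 0.16, adjusted p = 1.73e-05). Both were even among the YS libraries. Protein EXORDIUM-like (LOC111312403), whose Arabidopsis relative promotes cell expansion, had 0.295, 0.315 and 0.222 FPKM at MS and 122, 153 and 98.6 at YS (log2 fold change -6.60 ± 0.21, adjusted p = 2.74e-05). Others varied widely between young libraries. Peroxidase N1-like (LOC111283076), of a family that oxidises wall phenolics with hydrogen peroxide, had 1.18, 0.885 and 0.322 FPKM at MS and 29.4, 192 and 703 at YS (log2 fold change -6.51 ± 1.03, adjusted p = 0.00413). The gene named for an auxin-induced protein 12-like product of root cultures (LOC111305464), a transcribed pseudogene in the gene table of another durian assembly, had 0.078, 0.454 and 0.0753 FPKM at MS and 64.9, 71.6 and 351 at YS (log2 fold change -6.64 ± 0.63, adjusted p = 0.000694). YS_03 held the highest level of both. All 15 rises and all 15 falls passed in the averaged fit as well.

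**Figure D2:**
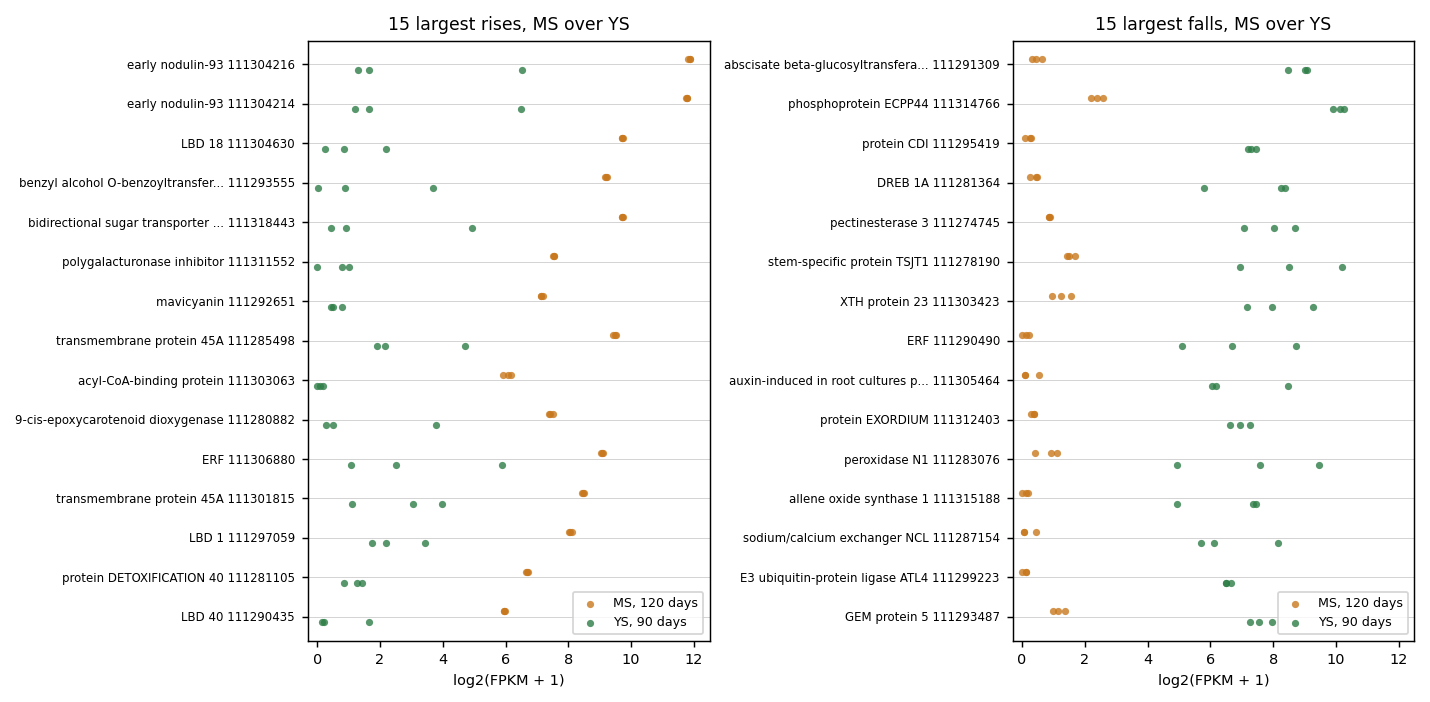
Level of each gene in each library as log2(FPKM + 1), for the 15 largest rises (left) and the 15 largest falls (right) of named genes at MS over YS, each with its LOC number. Orange points are the 3 MS libraries and green points the 3 YS libraries. Only genes without overlap between the stages were chosen, so none overlaps here. Of all tested genes 58.5% do not overlap. The MS points nearly coincide, and in many of the genes the YS points are more widely spread. ERF is ethylene-responsive transcription factor, LBD is LOB domain-containing protein, DREB is dehydration-responsive element-binding protein and XTH is xyloglucan endotransglucosylase/hydrolase.

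When MS counted as 1 sample and the error came from YS alone, 26 genes passed. Besides mavicyanin-like, the acyl-CoA-binding protein, DETOXIFICATION 40, CDI-like, ATL4-like and EXORDIUM-like, the named ones included asparagine synthetase 1 (LOC111284909), which stores nitrogen in asparagine. It had 0.155, 0.135 and 0.153 FPKM at MS and 81.2, 60.2 and 91.8 at YS (log2 fold change -6.08 ± 0.21, adjusted p = 3.59e-05). Aspartic proteinase-like (LOC111275658), a protein-cutting enzyme, had 0.412, 0.672 and 0.559 FPKM at MS and 131, 75.9 and 89.3 at YS (log2 fold change -5.98 ± 0.24, adjusted p = 5.24e-05). A pair of GEM-like protein 5 genes fell together. LOC111316515 had 14.2, 16.7 and 14.7 FPKM at MS and 787, 554 and 677 at YS, and LOC111293487 had 1.56, 0.967 and 1.21 at MS and 250.2, 154 and 188 at YS. Among the unnamed genes of this group, LOC111312882 had 36.02, 29.7 and 35.96 FPKM at MS and 1225, 1336 and 1426 at YS, and LOC111312850 had 228, 229.7 and 224 at MS and 7.14, 4.99 and 5.93 at YS. Asparagine synthetase, the proteinase, LOC111316515 and these unnamed genes were singled out after their values were seen.

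Genes that build the cell wall mostly fell, where 39.3% of all named genes fell. Few of these falls passed in the averaged fit, in which 80 of the 471 named genes fell. Cellulose synthases, the complex that spins cellulose at the plasma membrane, had 7 tested members of 11, of which 4 fell, none rose and 3 did not pass. Their summed level was 27.5 to 28.1 FPKM at MS, against 82 to 327.9 at YS. The member LOC111276937 was not listed in any YS library and counted there as 0. An assembled locus lay at its place in each of them, so its young level is uncertain. Catalytic subunit 2 (LOC111293168) had 1.64, 1.64 and 1.34 FPKM at MS and 18.9, 51.7 and 26.5 at YS (log2 fold change -3.60 ± 0.36, adjusted p = 0.00081), and was the one member that passed in the averaged fit. Catalytic subunit 1 (LOC111298977) had 10.2, 10.3 and 11.1 FPKM at MS and 35.6, 105 and 103 at YS (log2 fold change -2.68 ± 0.42, adjusted p = 0.00393). In both genes YS_01 was the lowest young library, and without YS_01 all 7 members fell. Of the 4 cellulose synthase-like genes 3 fell and 1 rose, and the D3 members (LOC111296013 and LOC111276893) fell in the averaged fit too. LOC111296013 had 1.84, 1.83 and 1.903 FPKM at MS and 26.4, 28.6 and 41.7 at YS (log2 fold change -3.51 ± 0.22, adjusted p = 0.000189).

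Xyloglucan, the polymer that coats cellulose, is made by glycosyltransferases. Of 12 tested genes for these enzymes, 1 of which acts on pectin, 9 fell and 2 rose. In the averaged fit 2 fell and 1 rose. Xyloglucan glycosyltransferase 4-like (LOC111291944), which lays down the glucan backbone, had 0.378, 0.71 and 0.371 FPKM at MS and 16.8, 20.2 and 89.5 at YS (log2 fold change -4.46 ± 0.6, adjusted p = 0.00226). The gene named for the side-chain enzyme xyloglucan 6-xylosyltransferase 5 (LOC111312616), a transcribed pseudogene in the gene table of another durian assembly, had 3.15, 2.93 and 3.67 FPKM at MS and 17.8, 75.4 and 44.6 at YS (log2 fold change -3.25 ± 0.48, adjusted p = 0.00325). Neither passed in the averaged fit, and with 5 added to the FPKM 5 of the 9 falls remained past the thresholds. Against the run of the group, galactosyltransferase GT11 (LOC111285245) had 17.48, 18.7 and 17.52 FPKM at MS and 1.06, 0.849 and 0.356 at YS (log2 fold change 3.45 ± 0.21, adjusted p = 0.000178), and it passed in that fit too. Callose synthase 11-like (LOC111278181), which makes a glucan laid down at plasmodesmata and wounds, rose as well, with 13.3, 12.95 and 12.48 FPKM at MS and 1.95, 2.75 and 3.102 at YS (adjusted p = 0.000764), but did not pass in the averaged fit or with 5 added to the FPKM.

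Most enzymes that loosen the wall also fell. Of 8 tested xyloglucan endotransglucosylase/hydrolases, which cut and rejoin xyloglucan, 7 fell (3 in the averaged fit) and none rose, with a median log2 fold change of -4.80. The group summed to 13.7 to 15.8 FPKM at MS, against 467.9 to 1340.8 at YS. LOC111292968, a probable member 6, had 0.233, 0.197 and 0.353 FPKM at MS and 43.9, 46.3 and 50.1 at YS (log2 fold change -5.24 ± 0.17, adjusted p = 2.74e-05). The young level of that gene was even, whereas LOC111303423 was at 1.92, 0.953 and 1.38 FPKM at MS and at 611, 249 and 144 at YS (log2 fold change -6.88 ± 0.51, adjusted p = 0.000326). At RS LOC111303423 stood at 22.99, 25.1 and 1.198 FPKM. Expansins, which loosen walls without cutting them, had 3 falls and 1 rise among 4 tested genes. Expansin-like A2 (LOC111308711) was not listed in any MS library and had 10.2, 4.69 and 8.298 FPKM at YS. Another expansin-like A2 gene (LOC111298117) had 3.405, 2.87 and 2.37 FPKM at MS and 76.1, 38.9 and 165 at YS (log2 fold change -4.37 ± 0.49, adjusted p = 0.00125). Expansin-like B1 (LOC111290971) had 7.01, 6.78 and 5.99 FPKM at MS and 2.66, 0.501 and 0.523 at YS (log2 fold change 1.90 ± 0.36, adjusted p = 0.00773). Neither of these passed in the averaged fit. Of the endoglucanases, which cut cellulose-like chains, all 3 tested genes fell, and none passed in the averaged fit.

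Pectin enzymes were split. Pectinesterases take methyl groups off pectin, and of 7 tested pectinesterase and pectin acetylesterase genes 5 fell and 2 rose. Pectinesterase 3 (LOC111274745) had 0.841, 0.829 and 0.827 FPKM at MS and 133, 260.1 and 411 at YS (log2 fold change -7.05 ± 0.39, adjusted p = 0.000143). Pectin acetyltransferase 7-like (LOC111289825) was at 6.82, 7.103 and 4.91 FPKM at MS and 238, 569 and 926 at YS (log2 fold change -6.12 ± 0.48, adjusted p = 0.00039). Both passed in the averaged fit and were the 2 falls past the thresholds with 5 added to the FPKM, and in both the young level was lowest in YS_01 and highest in YS_03. Polygalacturonases cut demethylated pectin. The polygalacturonase inhibitor-like gene LOC111311552, whose family blocks such enzymes, had 186, 182 and 186 FPKM at MS and 1.01, 0.739 and 0 at YS (log2 fold change 6.94 ± 0.28, adjusted p = 5.24e-05), and it passed in the averaged fit and with the error of YS alone. The polygalacturonase gene At3g15720-like (LOC111274286) had 2.06, 3.26 and 3.14 FPKM at MS and 0.142, 0.000159 and 0 at YS (log2 fold change 1.85 ± 0.2, adjusted p = 0.00111), while polygalacturonase-like LOC111311521 had 1.88, 1.26 and 1.54 at MS and 0.117, 0.0748 and 0.129 at YS, a log2 fold change of 1.20 (adjusted p = 0.00299) that stayed under the threshold. At RS the levels of LOC111311521 were 1341, 1319.7 and 41.2 FPKM, so that the gene was still close to silent at 120 days. The rise of LOC111274286 did not pass in the averaged fit or with 5 added to the FPKM. Beta-galactosidases, which trim galactose from wall polymers, had 6 falls and no rise among 8 tested genes, none of them in the averaged fit and 3 of them without YS_02. Beta-galactosidase-like LOC111286758 had 1.06, 0.901 and 1.62 FPKM at MS and 54.8, 9.14 and 139.9 at YS (log2 fold change -4.31 ± 0.87, adjusted p = 0.00946). Of 7 tested wall structural proteins 4 fell and none rose, among them fasciclin-like arabinogalactan protein 2 (LOC111314503), a cell-surface protein, with 0.444, 0 and 0.0674 FPKM at MS and 4.06, 62.1 and 43.5 at YS (log2 fold change -4.39 ± 0.9, adjusted p = 0.00974), a fall that did not pass in the averaged fit.

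**Figure D3:**
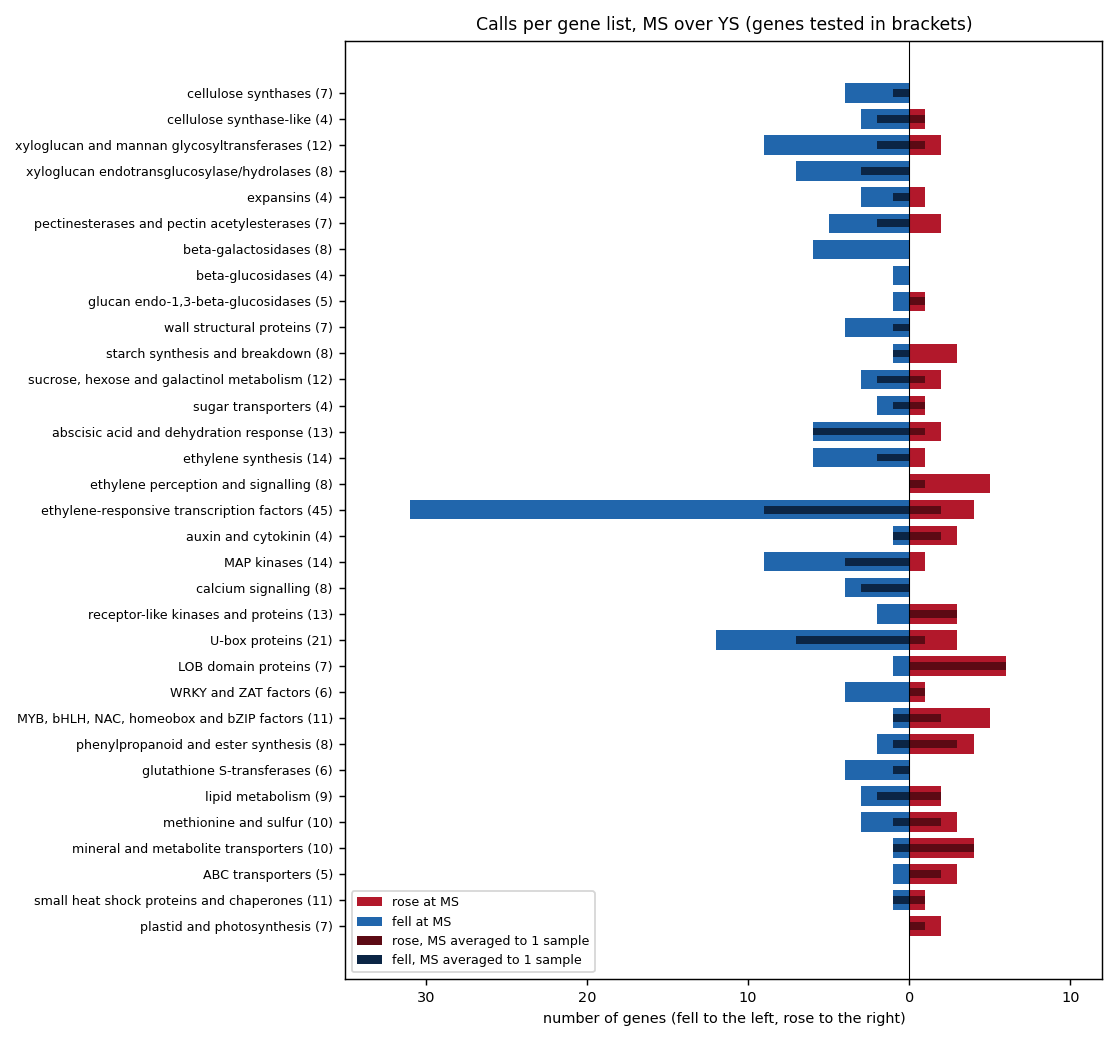
Number of genes that rose (red, to the right) or fell (blue, to the left) at MS over YS in each gene group with at least 4 tested genes, whose number stands in brackets. The thin dark bars count the calls of the averaged fit, in which the MS libraries are 1 sample. Ethylene-responsive transcription factors have the most falls, 31 of 45, and LOB domain proteins the most rises, 6 of 7.

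Starch genes moved in both directions. Glucose-1-phosphate adenylyltransferase (LOC111316856, large subunit), which makes the ADP-glucose used for starch, had 97.9, 101 and 102 FPKM at MS and 31.9, 14.9 and 12.46 at YS (log2 fold change 2.40 ± 0.34, adjusted p = 0.00279). Both 1,4-alpha-glucan-branching enzymes, which add the branches of amylopectin, also rose. LOC111291600 had 16.9, 17.95 and 18.3 FPKM at MS and 5.54, 4.502 and 2.27 at YS (log2 fold change 1.93 ± 0.28, adjusted p = 0.00292), and LOC111314672 had 6.02, 6.61 and 6.01 at MS and 0.669, 0.904 and 1.07 at YS (log2 fold change 1.94 ± 0.17, adjusted p = 0.000571). None of these 3 rises passed in the averaged fit, and with 5 added to the FPKM that of LOC111316856 alone did. Beta-amylase 1 (LOC111279622), which releases maltose from starch, had 5.43, 4.98 and 4.14 FPKM at MS and 168, 28.9 and 48.5 at YS (log2 fold change -3.44 ± 0.59, adjusted p = 0.00545), and passed in the averaged fit. A second beta-amylase 1 gene (LOC111306779), named here after its values were seen, had 107, 107 and 105 FPKM at MS and 236, 83.05 and 35.9 at YS, with an adjusted p of 0.769. The 3 remaining starch genes did not pass.

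Sugar genes showed a switch of single members rather than a common direction. Of 12 tested genes of sucrose, hexose and galactinol metabolism 2 rose, 3 fell (5 without YS_01) and 7 did not pass. Sucrose-phosphatase 2-like (LOC111311629), the last step of sucrose synthesis, had 7.47, 7.298 and 6.43 FPKM at MS and 73.6, 59.9 and 59.9 at YS (log2 fold change -3.02 ± 0.18, adjusted p = 0.000167). Galactinol synthase 2-like (LOC111296264), the first step towards raffinose, was in no MS library and at 4.82, 6.76 and 4.73 FPKM at YS. Both falls held in the averaged fit. A probable galactinol--sucrose galactosyltransferase (LOC111284733), the next step of that pathway, had 0.237, 0.405 and 0.195 FPKM at MS and 0.605, 14.9 and 137 at YS and did not pass (adjusted p = 0.0867), with YS_03 far above the other young libraries. Of the sugar transporters, SWEET10-like LOC111289849 was in no MS library and had 223, 27.1 and 19.3 FPKM at YS, while the transporter N3 (LOC111318443), also of the SWEET family, had 834, 848 and 846 at MS and 29.6, 0.885 and 0.362 at YS. At RS SWEET10-like stood at 1.12, 1.66 and 0.0777 FPKM and N3 at 1249.7, 1075 and 341 FPKM. Both calls held in the averaged fit.

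Of the genes of abscisic acid and the dehydration response some fell and a few rose. Abscisic acid is a hormone of drought and fruit maturation, and 6 of 13 tested genes fell, all 6 in the averaged fit too, while 2 rose and 5 did not pass, near the shares of all named genes. Abscisic acid 8'-hydroxylase 1-like (LOC111290894), which breaks the hormone down, had 0.232, 0.529 and 0.367 FPKM at MS and 39.8, 397 and 91.7 at YS (log2 fold change -6.39 ± 0.76, adjusted p = 0.00149). It thus changed alongside the abscisate beta-glucosyltransferase gene (LOC111291309), which had 0.351, 0.239 and 0.569 FPKM at MS and 357, 517 and 540.3 at YS and takes free hormone into a glucose ester. The 9-cis-epoxycarotenoid dioxygenase gene (LOC111280882), at the entry to the pathway, had 169, 180.2 and 168 FPKM at MS and 12.8, 0.408 and 0.222 at YS. This synthesis gene thus rose while the 2 removal genes above fell. Another removal gene, abscisic acid 8'-hydroxylase 4-like (LOC111296235), was not listed in any MS library, in YS_01 or in YS_02. Among response genes, protein EARLY-RESPONSIVE TO DEHYDRATION 7 (LOC111308755, named after its values were seen) had 6.79, 4.92 and 6.904 FPKM at MS and 545, 392 and 188 at YS (log2 fold change -5.59 ± 0.39, adjusted p = 0.000306), and 339.8, 361 and 280.0 FPKM at RS. Phosphoprotein ECPP44-like (LOC111314766), a dehydrin-type protein, was the most abundant of the group at YS, with 3.56, 4.25 and 4.98 FPKM at MS and 1212, 1119 and 960.4 at YS. All 13 genes summed to 259.4 to 272.9 FPKM at MS, against 1900.9 to 2813 at YS. Protein MARD1-like (LOC111279856, named after its values were seen) also rose, with 42.8, 46.8 and 45.3 FPKM at MS and 21.3, 11.2 and 3.39 at YS (adjusted p = 0.0222). Its call was lost in the averaged fit, without YS_02 or any one MS library (adjusted p 0.0557 to 0.0741), and without YS_03, where its fold change was too small.

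Of 14 tested ethylene synthesis genes 6 fell (2 with 5 added to the FPKM), 1 rose (2 without YS_01 or without YS_03) and 7 did not pass. The share that fell was near that of all named genes, and 2 falls passed in the averaged fit. S-adenosylmethionine synthase 2 (LOC111279193), which makes the activated methionine at the start of the route, had 10.1, 10.02 and 11.2 FPKM at MS and 218, 814 and 704 at YS (log2 fold change -5.45 ± 0.49, adjusted p = 0.000584). ACC oxidases make ethylene itself, and different members were higher at each stage. ACC oxidase LOC111314546 had 1.397, 0.717 and 1.03 FPKM at MS and 38.8, 24.5 and 52.4 at YS (log2 fold change -4.22 ± 0.3, adjusted p = 0.000314), whereas ACC oxidase LOC111306707 had 61.95, 60.8 and 64.1 at MS and 14.8, 11.3 and 9.92 at YS (log2 fold change 2.30 ± 0.2, adjusted p = 0.000504). The falls of LOC111279193 and LOC111314546 passed in the averaged fit and the rise of LOC111306707 did not. The ACC synthase gene with the highest mature level (LOC111304783, named after its values were seen) had 51.2, 53.4 and 49.9 FPKM at MS and 31.9, 2.32 and 14.8 at YS and did not pass (adjusted p = 0.0636), with YS_01 between the other young libraries and MS. Without YS_01 it rose (log2 fold change 2.86, adjusted p = 0.0169).

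Of 8 tested genes of ethylene perception and signalling 5 rose and none fell (1 fell with size factors or without YS_01), with a median log2 fold change of 1.89, against 0.06 over all tested genes. Among the named genes, many of them picked for their change, 21.4% rose and 39.3% fell. Their FPKM summed to 752.5 to 762.3 at MS, against 153.5 to 269.5 at YS. The ethylene receptor 2-like genes hold the pathway off until they bind ethylene. LOC111306700 had 331, 331 and 328 FPKM at MS and 58.2, 34.9 and 47.4 at YS (log2 fold change 2.82 ± 0.22, adjusted p = 0.000399). LOC111279153 had 261, 256 and 258 FPKM at MS and 35.4, 27.8 and 13.2 at YS (log2 fold change 3.40 ± 0.35, adjusted p = 0.000941). Its RS levels were again low, at 25.02, 23.9 and 9.29 FPKM. The unnamed gene LOC111279350 lies inside LOC111279153 on the same strand (scaffold NW_019168026.1, 3496256 to 3496636 within 3496256 to 3500255) and rose with it, so that reads cannot be assigned with certainty to either. EIN3-binding F-box protein 1-like, which marks the EIN3 transcription factors for breakdown, rose in both copies. LOC111303272 had 61.4, 58.5 and 60.1 FPKM at MS and 4.404, 10.1 and 12.4 at YS (log2 fold change 2.72 ± 0.34, adjusted p = 0.00185), and LOC111284689 had 69.8, 65.5 and 65.02 at MS and 13.9, 12.97 and 24.6 at YS (log2 fold change 1.95 ± 0.26, adjusted p = 0.00234). Of these rises that of LOC111279153 alone passed in the averaged fit.

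**Figure D4:**
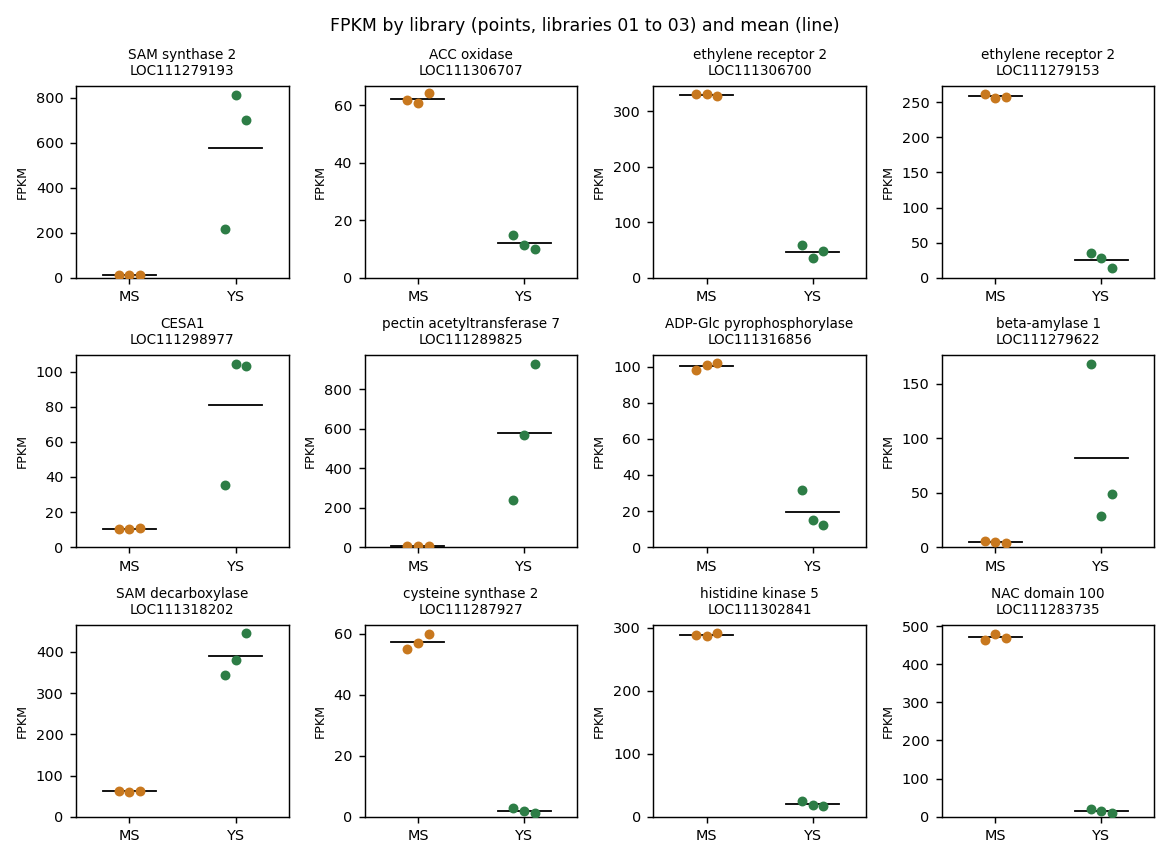
FPKM of 12 genes named in the text in each library (points, MS left and YS right) with the mean of the stage (line), each on its own axis from 0. Upper row, ethylene synthesis and receptors. Middle row, wall and starch. Lower row, polyamine, cysteine, a sensor histidine kinase and a NAC factor. All 12 rose or fell by the thresholds, and none overlaps between the stages. The same holds for all 1172 risen genes, 2210 of the 2211 fallen genes and 58.5% of all tested genes. SAM is S-adenosylmethionine, CESA1 cellulose synthase catalytic subunit 1 and Glc glucose.

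Ethylene-responsive transcription factors, a large family of which only some members answer to ethylene, had 31 falls and 4 rises among 45 tested genes. In the averaged fit 9 of them fell and 2 rose, where 80 of the 471 named genes fell and 61 rose. The median log2 fold change was -2.37. LOC111290490 had 0, 0.098 and 0.158 FPKM at MS and 32.99, 101 and 427 at YS (log2 fold change -6.72 ± 0.83, adjusted p = 0.00171). LOC111315585 had 2.12, 2.33 and 2.45 FPKM at MS and 171, 136 and 43.7 at YS (log2 fold change -4.95 ± 0.49, adjusted p = 0.000802). The family as a whole kept a high level, 1762.1 to 1803.6 FPKM at MS against 2411.9 to 3392.6 at YS, and a few members held much of it at MS. LOC111306880 had 534, 552 and 524 FPKM at MS and 58.8, 4.73 and 1.09 at YS (log2 fold change 5.91 ± 1.11, adjusted p = 0.00724). LOC111314102, named after its values were seen, had 878, 900.3 and 927 FPKM at MS and 283, 95.1 and 63.4 at YS (log2 fold change 2.90 ± 0.51, adjusted p = 0.00592), and did not pass in the averaged fit.

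Other hormone genes were few. Histidine kinase 5-like (LOC111302841), of the sensor kinase family that includes cytokinin receptors, had 288, 288 and 291 FPKM at MS and 25.6, 18.03 and 16.3 at YS (log2 fold change 3.81 ± 0.21, adjusted p = 0.000143). The cytokinin riboside phosphoribohydrolase gene (LOC111311845), which activates cytokinin, had 5.36, 6.34 and 6.27 FPKM at MS and 1.32, 0.133 and 0.124 at YS (log2 fold change 2.28 ± 0.31, adjusted p = 0.00246). Both rises passed in the averaged fit, the second not with 5 added to the FPKM. Jasmonate, a hormone of wounding and defence, is made by allene oxide synthase and 12-oxophytodienoate reductase. Allene oxide synthase 1 (LOC111315188) had 0.139, 0 and 0.0899 FPKM at MS and 29.4, 176 and 164 at YS (log2 fold change -6.48 ± 0.66, adjusted p = 0.00088). The putative 12-oxophytodienoate reductase 11 gene (LOC111274382) had 0.155, 0.0417 and 0.554 FPKM at MS and 3.84, 20.1 and 17.8 at YS (log2 fold change -3.33 ± 0.56, adjusted p = 0.00499). Whether this member of the reductase family takes part in jasmonate synthesis was not tested. The 12-oxophytodienoate reductase 3-like gene (LOC111285821, named after its values were seen) was in no MS library, had 0.218, 4.21 and 17.46 FPKM at YS and was too low to be tested.

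Mitogen-activated protein kinase, calcium and U-box genes fell more often than they rose. So did the named genes as a whole, of which 39.3% fell and 21.4% rose. Of 14 tested mitogen-activated protein kinase genes, which relay signals from the cell surface, 9 fell (5 with 5 added to the FPKM, 4 in the averaged fit) and 1 rose. The kinase kinase kinase gene LOC111275659 had 0.107, 0.123 and 0.158 FPKM at MS and 51, 44.5 and 24.04 at YS (log2 fold change -5.11 ± 0.29, adjusted p = 0.000149). Kinase kinase kinase LOC111285643 ran the other way, with 90.2, 91.9 and 91.98 FPKM at MS and 25.6, 13.6 and 4.22 at YS (log2 fold change 2.87 ± 0.55, adjusted p = 0.00771), a rise that did not pass in the averaged fit. Among 8 tested calcium signalling genes 4 fell (2 with 5 added to the FPKM, 3 in the averaged fit) and none rose. Sodium/calcium exchanger NCL-like (LOC111287154) had 0.0447, 0.357 and 0.0417 FPKM at MS and 68.8, 50.6 and 286 at YS (log2 fold change -6.47 ± 0.61, adjusted p = 0.000693). The calcium permeable stress-gated cation channel gene (LOC111278288) had 0.276, 0.146 and 0.175 FPKM at MS and 20.8, 23.7 and 62.6 at YS (log2 fold change -4.76 ± 0.41, adjusted p = 0.0005). Both were highest in YS_03. Receptor-like kinases and proteins had 3 rises, all 3 in the averaged fit too, and 2 falls, neither of them there, among 13 tested genes. Receptor-like protein kinase At1g80640 (LOC111304064) had 20.5, 18.4 and 21.4 FPKM at MS and 0.67, 0.451 and 0.427 at YS (log2 fold change 3.80 ± 0.17, adjusted p = 7.27e-05). U-box proteins, a class of ubiquitin ligases, had 12 falls (6 with 5 added to the FPKM, 7 in the averaged fit) and 3 rises (1 there) among 21 tested genes. U-box protein 33-like LOC111304738 had 0.853, 0.866 and 0.945 FPKM at MS and 18.3, 31.8 and 84.9 at YS (log2 fold change -4.33 ± 0.51, adjusted p = 0.00146), while U-box protein 27-like LOC111299778 had 74.8, 76.4 and 81.1 at MS and 4.49, 4.92 and 15.6 at YS (log2 fold change 3.27 ± 0.42, adjusted p = 0.00203).

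LOB domain proteins, plant-specific regulators named after lateral organ boundaries, had 6 rises and 1 fall among 7 tested genes, and the 6 rises passed in the averaged fit. LOC111304630, named LOB domain-containing protein 18, had 847, 842 and 828 FPKM at MS and 3.62, 0.803 and 0.177 at YS (log2 fold change 8.62 ± 0.47, adjusted p = 0.000142), and 76.9, 69.4 and 57.98 FPKM at RS. LOC111282412, named member 42-like, had 40.4, 43.99 and 39.9 FPKM at MS and 1.74, 0.147 and 0 at YS (log2 fold change 4.85 ± 0.38, adjusted p = 0.000399), and 0.645, 0.592 and 0 at RS. Both were lower at RS than at MS in every library, and YS_01 was the highest young library of both. NAC domain-containing protein 100-like (LOC111283735), of a family with several ripening regulators in tomato, had 465, 480.0 and 469 FPKM at MS and 21.5, 14.3 and 11.1 at YS (log2 fold change 4.88 ± 0.25, adjusted p = 0.000118). Transcription factor MYB62-like (LOC111281901) fell, with 0.409, 0.296 and 0.0662 FPKM at MS and 7.45, 75.5 and 51.6 at YS (log2 fold change -4.70 ± 0.77, adjusted p = 0.00465). YS_01 was its lowest young library. The ZAT12-like zinc finger gene LOC111296606 had 35.7, 34.8 and 37.9 FPKM at MS and 2.78, 0 and 0 at YS (log2 fold change 4.58 ± 0.51, adjusted p = 0.00127). The ZAT12-like gene LOC111303611 ran the other way, with 6.03, 6.38 and 6.04 FPKM at MS and 157, 67.7 and 12.9 at YS (log2 fold change -2.90 ± 0.8, adjusted p = 0.0278), and did not pass in the averaged fit, without YS_02 or without any one MS library (adjusted p 0.0806 to 0.0894). A pair of WRKY 40 genes, regulators of the defence response, also fell. WRKY 40 gene LOC111281172 had 0.454, 0.28 and 0.196 FPKM at MS and 4.67, 79.7 and 216 at YS (log2 fold change -5.15 ± 1.22, adjusted p = 0.016). Its call was lost on leaving out YS_02 or any single MS library (adjusted p 0.0527 to 0.0604), and LOC111274387, with 0, 0.0595 and 0 FPKM at MS and 1.38, 60.03 and 94.8 at YS (log2 fold change -4.56 ± 1.3, adjusted p = 0.0301), lost its call without YS_02, without YS_03 or without any one MS library (adjusted p 0.0743 to 0.102). Neither passed in the averaged fit. Transcription activator GLK1-like (LOC111298473), which drives chloroplast development, had 7.05, 7.43 and 7.42 FPKM at MS and 0.0864, 0 and 0 at YS (log2 fold change 3.01 ± 0.16, adjusted p = 0.00012).

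Genes of phenylpropanoid and ester synthesis included 4 rises and 2 falls among 8 tested. Shikimate O-hydroxycinnamoyltransferase-like (LOC111274350), a step towards lignin precursors, had 71.3, 70.5 and 72 FPKM at MS and 5.28, 0.0491 and 0.282 at YS (log2 fold change 5.15 ± 0.65, adjusted p = 0.00181). The benzoyltransferase-like gene LOC111293555, whose family makes esters of aromatic acids, had 594, 587 and 578 FPKM at MS and 11.8, 0.85 and 0.0165 at YS (log2 fold change 7.67 ± 0.86, adjusted p = 0.00126). Both passed in the averaged fit. In both the highest young level was that of YS_01. 4-Coumarate--CoA ligase-like 5 (LOC111315258) had 0.281, 0.115 and 0.172 FPKM at MS and 2.39, 8.93 and 20.2 at YS (log2 fold change -2.91 ± 0.61, adjusted p = 0.0107), and its fall did not pass in the averaged fit.

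Sulfur metabolism held one of the most abundant named genes. Methionine gamma-lyase splits methionine to methanethiol, from which volatile sulfur compounds arise. LOC111308047, described after its values were seen, had 2192, 2187 and 2153 FPKM at MS and 1086, 142 and 293 at YS (log2 fold change 2.61 ± 0.67, adjusted p = 0.022), and did not pass in the averaged fit, without YS_03 or without any one MS library (adjusted p 0.0577 to 0.0707). Its RS level was 2154, 2159 and 1954 FPKM. Of the 10 tested genes of methionine and sulfur metabolism 3 rose, 3 fell and 4 did not pass. A methionine gamma-lyase-like gene at a lower level, LOC111308026, had 9.47, 7.93 and 8.18 FPKM at MS and 0.714, 0 and 0.106 at YS (log2 fold change 2.94 ± 0.25, adjusted p = 0.000479). A further copy, LOC111287425, ran the other way, being in no MS library and at 1.13, 7.13 and 14.2 FPKM at YS (adjusted p = 0.0184). Its fall did not pass in the averaged fit, without YS_02 or without any one MS library (adjusted p 0.0624 to 0.0648). Cysteine synthase 2-like (LOC111287927), which fixes sulfide into cysteine, had 54.8, 56.8 and 59.9 FPKM at MS and 2.79, 1.82 and 1.09 at YS (log2 fold change 4.37 ± 0.25, adjusted p = 0.000149). No young library reached the mature level of LOC111308026 or LOC111287927. S-adenosylmethionine decarboxylase, which diverts activated methionine to polyamines, fell in 2 of 4 tested genes. LOC111318202 had 63.3, 59.1 and 63.3 FPKM at MS and 345, 380.3 and 446 at YS (log2 fold change -2.63 ± 0.18, adjusted p = 0.000263). The rises of LOC111308026 and LOC111287927 and the fall of LOC111318202 passed in the averaged fit.

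Lipid genes rose and fell singly. Non-specific phospholipase C4-like (LOC111276942), which cleaves membrane lipids, had 17.13, 18.9 and 16.1 FPKM at MS and 0.562, 0.0443 and 0 at YS (log2 fold change 3.96 ± 0.23, adjusted p = 0.000149). Phospholipase A1-IIbeta-like (LOC111318712), which frees fatty acids, had 0.152, 0.0484 and 0.321 FPKM at MS and 60.9, 24.7 and 24.2 at YS (log2 fold change -4.87 ± 0.37, adjusted p = 0.000353). Omega-3 fatty acid desaturase (LOC111293917), which makes the fatty acid from which jasmonate starts, had 0.065, 0.267 and 0.274 FPKM at MS and 6.41, 112 and 201 at YS (log2 fold change -5.53 ± 1.14, adjusted p = 0.0101). The young level of the desaturase spanned a wide range with YS_01 lowest, and its fall did not pass in the averaged fit, whereas both phospholipase calls did.

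Transporters of other solutes than sugars moved both ways. Of 10 tested mineral and metabolite transporters 4 rose (2 with 5 added to the FPKM) and 1 fell, all 5 in the averaged fit too. Protein DETOXIFICATION 33 (LOC111312665) had 24.1, 22.2 and 24.8 FPKM at MS and 0.932, 0.0971 and 0.556 at YS (log2 fold change 4.05 ± 0.24, adjusted p = 0.000171). The member that fell was NRT1/PTR FAMILY 5.5-like (LOC111318240), of a family of nitrate and peptide carriers, with 0, 0.0063 and 0 FPKM at MS and 5.28, 24.6 and 63.4 at YS (log2 fold change -4.44 ± 0.76, adjusted p = 0.00536). ABC transporters of the G family, which export lipids and hormones, had 3 rises and 1 fall among 5 tested ABC genes. Member 11-like (LOC111316978) had 13.8, 13.3 and 13.96 FPKM at MS and 0.0408, 0 and 0 at YS (log2 fold change 3.86 ± 0.16, adjusted p = 5.24e-05), and 53.01, 47.03 and 7.07 FPKM at RS.

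Few stress-protein genes passed. Of 11 tested small heat shock protein and chaperone genes 9 did not pass. Chaperone protein dnaJ 11 (LOC111312815), a plastid co-chaperone, had 0.197, 0.332 and 0 FPKM at MS and 79.2, 59.8 and 211 at YS (log2 fold change -6.44 ± 0.46, adjusted p = 0.000308). Heat stress transcription factor A-2-like (LOC111299261), which switches on heat shock genes, had 6.08, 6.44 and 5.95 FPKM at MS and 0.115, 0.185 and 0.32 at YS (log2 fold change 2.57 ± 0.17, adjusted p = 0.000229), and 43.2, 44.3 and 53.6 at RS. Glutathione S-transferases, which detoxify by coupling to glutathione, had 4 falls and no rise among 6 tested genes. LOC111298889 had 10.9, 9.96 and 8.74 FPKM at MS and 88.2, 205 and 66.01 at YS (log2 fold change -3.30 ± 0.41, adjusted p = 0.00173), and it alone passed in the averaged fit, with 5 added to the FPKM and without YS_02 or any one MS library. The U8-like copies LOC111296858 and LOC111296590 had nearly the same values in every library and may share reads, and both calls were lost without YS_02, YS_03 or any one MS library (adjusted p 0.0568 to 0.0914).

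Markers of other tissues were low at MS, those of seed near 0. Embryo-specific protein ATS3B-like (LOC111280983) had 0, 0 and 0.209 FPKM at MS and 0.597, 0.18 and 0.578 at YS, and vignain-like (LOC111290564), a seed protease, had 0.851, 0.646 and 0.326 at MS and 1.64, 0.194 and 0.714 at YS. The seed protein gene SLE1 (LOC111294535) was the exception, with 0.217, 0.383 and 0.102 FPKM at MS and 164, 27.8 and 16.2 at YS (log2 fold change -5.14 ± 0.77, adjusted p = 0.00341). It was highest in YS_01. The 3 seed genes together stayed at or below 1.1 FPKM at MS and reached 166.1 FPKM at YS. Whether young pulp held some seed tissue was not tested. The 3 vascular markers summed to 3.0 to 3.5 FPKM at MS and 4.4 to 5.9 at YS. The sieve element gene (LOC111317678) was at 0 in all 3 MS libraries and at 0.0297 FPKM or less at YS, so nearly all of the sum came from the other markers. Of these 1 was tested and did not pass, with a log2 fold change of -0.69. No marker of the pulp itself was named in the sources used here. In bulk tissue a smaller share of cells of one type and less RNA per cell cannot be told apart.

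The most abundant genes of both stages had no product name here. LOC111292022 (scaffold NW_019168470.1, 9160556 to 9162114) had 11792, 11742 and 12338 FPKM at MS and 211, 1423 and 69.9 at YS (log2 fold change 5.43 ± 0.98, adjusted p = 0.00636). LOC111301681, a long non-coding RNA in the gene table of another durian assembly, had 12395, 12338 and 12401 FPKM at MS and 6894, 2487 and 748 at YS (log2 fold change 2.40 ± 0.73, adjusted p = 0.037). It was the highest gene at MS, yet its rise was lost without YS_02 or any one MS library (adjusted p 0.0928 to 0.101). At YS the highest was LOC111299579, with 2244, 2282 and 2297 FPKM at MS and 22261, 23800.3 and 15640.3 at YS (log2 fold change -3.15 ± 0.21, adjusted p = 0.000263). LOC111312573 had 2245, 2179.8 and 2367 FPKM at MS and 11468, 17989.8 and 20374 at YS (log2 fold change -2.83 ± 0.25, adjusted p = 0.00056). Of these 4 genes only LOC111299579 passed in the averaged fit. Among the 10 highest genes of each stage LOC111301680, LOC111301681 and LOC111280066 were on both lists. LOC111280066 had 3936, 3998 and 4086 FPKM at MS and 2339, 2394 and 2886 at YS, a log2 fold change of 0.66.

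Some named genes stayed close to level. RNA exonuclease 4 (LOC111306077) had 60.5, 54.03 and 60.8 FPKM at MS and 34.6, 44.6 and 82.8 at YS, a log2 fold change of 0.21 with an adjusted p of 0.639. Ubiquitin carboxyl-terminal hydrolase 6-like (LOC111278971), which takes ubiquitin off proteins, had 28.1, 27.6 and 27.1 FPKM at MS and 22.1, 30.8 and 19.3 at YS, a log2 fold change of 0.22. Protein VACUOLELESS1-like (LOC111283809), which is needed for vacuoles to form in Arabidopsis, had 15.9, 15.8 and 14.9 FPKM at MS and 14.8, 10.02 and 20.7 at YS, a log2 fold change of 0.08. In all 3 genes the young libraries lay on both sides of the mature ones.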

How the data were processed

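Poly-A RNA of durian pulp, parted from husk and seeds, was sequenced in pairs of 150-base reads, 3 libraries a stage. In the deposited gene tables, which the authors made with StringTie for each library, FPKM is corrected for gene length and depth, coverage is the mean read depth per base, and the TPM column sums to more than its nominal total and was treated as a score that no test used. The processing notes name FastQC, Trimmomatic, Bowtie and TopHat and the methods HISAT2. Versions and genome build are not given in the sources used here. The tables hold no counts, so depth was taken as mapped bases and fragments as coverage times gene span over 300 bases, which gives approximate precision only.

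Rows of reference genes were kept and an unlisted gene was set to 0. Of 39453 genes above 0 somewhere, 21598 reached an FPKM of 1 in 3 or more of 9 libraries and were tested by limma 3.58.1 (R 4.3.3, two-sided, Benjamini-Hochberg) on log2(FPKM + 1), MS over YS, with thresholds of 1.5 and 0.05 as in the study. Summaries used Python 3.11.15, pandas 2.3.3 and NumPy 2.4.6. The fit was tested on simulated data. The series text calls the libraries of a stage biological replicates, but no label names a fruit or tree, so p-values measure the spread between these libraries, which may be technical. Members, gene lists and thresholds were chosen with earlier results of these data known. Named genes were the 15 largest rises and falls with a product name, a mean FPKM of at least 10 in a stage and no overlap, the up to 4 members of each list with the largest change, the 10 highest genes of each stage, the 5 highest steady genes (log2 fold change under 0.25 in size), the 5 unnamed rises and falls with the largest change in FPKM, and adjacent genes at 100 FPKM or more that changed together. Product names came from the study. Alternatives were a pseudocount of 0.1 or 5, no filter, a filter at FPKM 10, size factors, all 9 libraries in a fit, limma-trend, a replicate block, MS averaged to 1 sample, and leaving out each library.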

Additional observations from a re-analysis of the deposited data

How the results depend on the processing

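The main counts were 1172 rises and 2211 falls. With a pseudocount of 5 there were 555 and 906, with one of 0.1 1773 and 3065, and with a filter at FPKM 10 922 and 1003 of 9817 genes, where fewer genes were tested. In the averaged fit 301 and 627 passed, and with the MS average set against the spread of YS alone (added after seeing the data) 8 and 18. Leaving out 1 library gave 988 to 1467 rises and 1759 to 2573 falls. No filter (968 and 1680), size factors (1035 and 2164), all 9 libraries in a fit (1187 and 2262) and limma-trend (1171 and 2211) stayed within 1.5 times. Same-numbered MS and YS libraries had correlations of -0.004, -0.007 and -0.006 in their deviations. The MS deviations were little more than counting noise, so these correlations could not tell whether the library numbers pair the samples. The replicate block gave 1197 and 2289. No named or listed gene changed direction, of 406 under each setting and of 247 that the filter at FPKM 10 left. Their calls were lost in 155 genes with MS averaged, 266 with the YS spread alone, 88 with a pseudocount of 5, 59 with no filter and 9 to 44 on leaving out a library. The 406 include genes that did not pass in the main fit and had no call to lose. The share of calls lost is therefore larger than these counts over 406. The MS libraries differed by little more than estimated counting noise, and without counts it cannot be told whether they are separate samples.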

Other observations

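The biotype of a gene was read from the gene table of another durian assembly by its symbol. Of 234 tested long non-coding RNA genes 35 rose (15%) and 9 fell (3.85%), against 874 (5.13%) and 1781 (10.4%) of 17045 tested protein-coding genes. In the averaged fit 9 and 3 of the long non-coding RNA genes passed, against 216 and 514 of the protein-coding genes. Pseudogenes rose in 30 (12.3%) and fell in 28 (11.5%) of 244 tested. The difference between biotypes was not tested.

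Genes that changed also lay beside each other. Among 12664 pairs of adjacent tested genes both rose in 141, both fell in 223, and 1 rose and 1 fell in 80. The neighbour of a risen gene had risen in 19.17% of 1471 places, against 5.43% of all tested genes, and the neighbour of a fallen gene had fallen in 17.61% of 2533 places, against 10.2%. Overlapping gene models and near-identical copies that share reads are among these pairs, and their part in the counts was not tested.

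Of the genes listed in all 3 libraries of one of these stages, 112 were in all MS and in no YS library, and 1264 in all YS and in no MS library. The tables leave out a gene rather than give it a 0. For 489 named or listed genes there were 263 cases of a gene missing from a library. In 7 of these an assembled locus, on the same strand or without an assigned strand, lay at the gene's place.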
